A study of Mus musculus with 4 samples.

Results

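The regions described here are stretches of open chromatin in mouse 3T3 fibroblasts that the deposited annotation assigns to a gene but whose centre lies more than 2500 bp from the transcription start of that gene. They were taken from the table of Rela wild-type and Rela knockout cells as all rows with a gene identifier and an absolute distance above 2500 bp, and are called distal regions below. There were 2074 of them, among 10141 gene-assigned regions and 28445 regions in that table, and 34172 regions in the 2 tables of the series. The other gene-assigned regions, 8067 within 2500 bp of the start, are called promoter regions, and 18304 regions had no gene.

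Chromatin accessibility was measured by ATAC-seq, an assay that uses Tn5 transposase to tag exposed DNA with sequencing adapters. Both groups used here are the 3T3 line, an established line of embryo fibroblasts, at passages 15 to 20, grown in medium with bovine calf serum, with 50000 cells per library. One group is labelled Rela wt, for wild type, and the other Rela K.O., for knockout. No stimulus is named for either, and the sources used here do not give how the knockout was made or which part of the gene it alters. The series text speaks of 2 biological replicates for each genotype, while the table holds 1 value column per genotype. Differences between genotypes therefore have no replicate check, and none was tested.

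Rela encodes p65, a subunit of the NF-kB transcription factors, which are held in the cytoplasm by inhibitors in resting cells and on release bind kappaB sites in promoters and enhancers. Enhancers are regulatory stretches away from a transcription start, open where transcription factors occupy them, and in fibroblasts as in other cells they vary more between cell types than promoters do. A region some kilobases from an annotated start can be such an element, another start of the same gene, the start of a neighbour, or a site with no known role.

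Values are the normalized signal of a region, a background-corrected and scaled whole number. The median region of the table had 34 in wild-type and 35 in knockout cells, which corresponded to about 49.8 and 36.9 implied counts. Ratios are given as log2((knockout + 1)/(wild type + 1)), regions with a mean signal of at least 1 were used, and a region is called past 2-fold when this ratio is at least 1 in size. Pairs of signals are given with wild type first, and a fold is the ratio of the 2 signals. Brackets after a fold hold its exact 95% Clopper-Pearson interval, which covers counting error only and not the difference between cultures. If a column blends replicates scaled separately, the implied counts and so the intervals are off. For a fold against a signal of 0, the 0 was set to 3 counts, which is 2.05 for wild type and 2.85 for the knockout. The region at the Rela start (chr19:5637247-5637615) had 21 in wild-type and 27 in knockout cells, and Rela had no distal region, so these values do not check the knockout. Of 19 fibroblast markers, 9 had a region anywhere in the table, against 5 of 14 adipocyte, 4 of 14 neural, 4 of 14 leukocyte and 4 of 19 epithelial markers. Of pericyte and smooth muscle markers 3 of 12 had one, of endothelial 2 of 13, of skeletal muscle 2 of 13, and of chondrocyte and osteoblast 1 of 13.

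Some distal regions lay on a start that RefSeq gives for the same gene, away from the start the table used. Of the 2074 distal regions, 68 overlapped the window from 250 bases before to 50 bases after such a RefSeq start (build GRCm38.p6), 55 overlapped only a window of another gene, and 1951 overlapped none. In all, 884 distal regions had a gene symbol found in the RefSeq windows. Among the 68, 7 (10.3%) had a knockout signal at least 2-fold above wild type and 2 (2.94%) at least 2-fold below, beside 22.4% and 21.0% of all regions tested. The 250 bases before the start are shown for 7 of these 9, because they carry the sharpest differences at a start: in Isoc2b, Pax9, Zfand4, Il11 and Nr3c2 the signal was higher in the knockout, and in Slc29a1 and Zfp445 it was lower. Il11 and the last 3 genes were chosen after their values were seen. The other 2 were Atp8b2, a flippase gene, with 18 and 41, and Eva1c, with 71 and 157. Capitals mark matches to any of 10 motifs searched on both strands: the 10-base kappaB consensus, AP-1 (TGANTCA), CRE (by name), TEAD (GGAATG), RUNX (TGTGGT), the core CTCF motif (by name), CArG (by name), ETS (CCGGAAG), GC box (GGGCGG) and NRF1 (by name).
Isoc2b, chr7:4866180-4866429, minus strand: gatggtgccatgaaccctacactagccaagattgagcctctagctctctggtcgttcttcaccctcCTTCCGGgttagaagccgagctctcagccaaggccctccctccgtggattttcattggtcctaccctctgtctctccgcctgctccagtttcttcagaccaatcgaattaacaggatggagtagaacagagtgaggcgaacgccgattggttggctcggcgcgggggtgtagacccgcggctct
Pax9, chr12:56695221-56695470, plus strand: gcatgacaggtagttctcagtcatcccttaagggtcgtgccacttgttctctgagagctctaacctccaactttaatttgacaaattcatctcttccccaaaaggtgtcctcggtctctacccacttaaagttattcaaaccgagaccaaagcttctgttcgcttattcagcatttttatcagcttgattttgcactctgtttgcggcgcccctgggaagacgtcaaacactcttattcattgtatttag
Zfand4, chr6:116266282-116266531, plus strand: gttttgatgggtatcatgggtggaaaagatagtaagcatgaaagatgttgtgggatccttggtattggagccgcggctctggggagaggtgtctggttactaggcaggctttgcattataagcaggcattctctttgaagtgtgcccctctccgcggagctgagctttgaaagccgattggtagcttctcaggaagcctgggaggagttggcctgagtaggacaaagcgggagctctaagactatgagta
Il11, chr7:4778142-4778391, minus strand: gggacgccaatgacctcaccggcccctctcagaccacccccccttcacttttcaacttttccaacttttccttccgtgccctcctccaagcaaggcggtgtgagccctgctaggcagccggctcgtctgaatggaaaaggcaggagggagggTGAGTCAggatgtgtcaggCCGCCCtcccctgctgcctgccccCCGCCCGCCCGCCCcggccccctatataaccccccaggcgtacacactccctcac
Nr3c2, chr8:76902080-76902329, plus strand: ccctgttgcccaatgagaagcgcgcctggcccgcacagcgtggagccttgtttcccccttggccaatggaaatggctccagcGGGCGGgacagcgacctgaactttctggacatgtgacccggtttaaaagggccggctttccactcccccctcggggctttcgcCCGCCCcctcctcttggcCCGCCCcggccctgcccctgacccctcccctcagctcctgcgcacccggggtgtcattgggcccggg
Slc29a1, chr17:45597152-45597401, minus strand: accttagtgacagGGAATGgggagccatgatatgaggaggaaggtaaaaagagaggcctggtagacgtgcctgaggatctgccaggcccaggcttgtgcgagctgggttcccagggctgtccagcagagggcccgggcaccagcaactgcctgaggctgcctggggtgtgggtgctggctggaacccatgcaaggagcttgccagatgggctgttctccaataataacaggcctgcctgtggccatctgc
Zfp445, chr9:122866007-122866256, minus strand: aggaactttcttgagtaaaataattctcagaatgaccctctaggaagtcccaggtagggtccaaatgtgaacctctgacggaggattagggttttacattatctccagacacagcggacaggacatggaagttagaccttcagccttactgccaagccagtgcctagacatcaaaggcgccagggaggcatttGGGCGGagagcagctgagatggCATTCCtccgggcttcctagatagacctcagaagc

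The 7 stretches differ in base composition as well as in signal. Isoc2b, an isochorismatase-domain gene, had signals of 0 (wild type) and 77 (knockout), and its stretch holds 14 CpG and 1 ETS match. With the 0 set to 3 counts the signal was 37.6-fold higher, and the interval has a lower limit of 29.8. The stretch before Pax9, a paired-box factor of tooth and pharyngeal pouch development, has 43.6% GC and no match to any of the motifs, and its region had 3 and 193. Zfand4, which encodes an AN1-type zinc finger protein, had 1 and 74 with no match either. The Il11 stretch, of an IL-6 family cytokine gene, holds 1 AP-1 match and 4 GC boxes, partly overlapping. The region, with 0 and 31, covers part of the stretch with the AP-1 match, but not the GC boxes or the start itself. Nr3c2, the mineralocorticoid receptor gene, had 19 and 177 with 3 GC boxes and 17 CpG. On the lower side, Slc29a1, which encodes the nucleoside transporter ENT1, had 134 and 52 with 1 TEAD match, and Zfp445, a zinc finger gene, had 34 and 6 with 1 TEAD match and 1 GC box. None of the 7 stretches holds a kappaB match, which says only that these letters are not in the window.

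The kappaB consensus was present in 7 of the 68 windows (10.3%), against 4.23% of the 6690 RefSeq windows covered by promoter regions of the table and 3.9% of all 32807 windows. The sites are shown with 10 bases on each side where the window allows, with the match in capitals. Meig1 and Sin3a hold 2 matches each, and those of Meig1 overlap, so 1 of them is printed.
Cpsf6, chr10:117377035-117377064, minus strand: gaccttcggcGGGGTCCCCCgtcaccagca
Lgals8, chr13:12461867-12461896, minus strand: ggcaaacccaGGAGTACCCCggccacaccc
Meig1, chr2:3419209-3419238, minus strand: agcgccaaccGGGGAATCCCctctgcagag
Tbc1d1, chr5:64160136-64160165, plus strand: ggactcactaGGGAGATTCCggctgctgtc
Sin3a, chr9:57076161-57076190, plus strand: ggttgagttaGGGACTCTCCccgccaatag
Sin3a, chr9:57076348-57076375, plus strand: gagagtgggcGGGATTTCCCgggtaaca
Ick, chr9:78113064-78113093, plus strand: tttttaagcgGGGGCTTCCCttatttgagt
Flna, chrX:74246665-74246694, minus strand: ggggcgttgtGGGGCATTCCaacgggaggg
All 7 of these distal regions lay within 2-fold between the genotypes, as did 86.8% of the 68. The sites of Lgals8 and Ick lie in the window but outside the distal region that overlaps it, so the signal of those 2 regions does not cover the site. Cpsf6, a factor of mRNA 3' end processing, had 25 and 20, Lgals8, which encodes galectin-8, 20 and 29, and Meig1, a meiosis gene, 25 and 20. Tbc1d1, a Rab GTPase-activating protein gene, had 31 and 47, and Ick, which encodes a ciliary kinase, 23 and 14. The strongest were Sin3a, the scaffold of a histone deacetylase complex, with 367 and 406 (1.11-fold, 0.973 to 1.26), and Flna, the actin crosslinker filamin A, with 143 and 155 (1.08-fold, 0.877 to 1.34).

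AP-1 matches were found in 8 of the 68 windows (11.8%) against 4.36% of those covered by promoter regions and 6.75% of all windows. TEAD matches were in 14 (20.6%) against 9.72% and 12.6%, while GC boxes, in 42 (61.8%), were close to the 66.5% of windows under promoter regions. ETS matches (13.2% against 16.7% under promoter regions), RUNX (8.82% and 9.48%), the CTCF core (7.35% and 5.14%) and NRF1 (1.47% and 1.85%) stood closer, and CRE and CArG were in 0 windows, against 3.36% and 1.21%. The 68 windows had a median GC content of 59.8% and 15 CpG, between all windows (52.4% and 6) and windows under promoter regions (62.0% and 18).

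The distal regions belonged to 1998 genes: 1925 had 1, 70 had 2 and 3 had 3. Distances ran from 2501 to 7590 bp with a median of 3854 bp, and 170 regions lay beyond 5000 bp. There were 1021 upstream of the start and 1053 downstream, of which 665 lay inside the gene body and 388 past the gene end. Whether a region in a gene body is exonic or intronic was not determined here. The median width was 377 bp, against 512 bp for promoter regions and 368 bp for regions with no gene. Per 100 bp, the median distal signal was 8.05 in wild-type and 7.86 in knockout cells, below promoter regions (9.35 and 9.44) and near regions with no gene (7.85 and 8.12). Of the summed signal of the table, distal regions made up 6.74% (wild type) and 6.42% (knockout).

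Knockout and wild-type cells differed at many distal regions, about as often in each direction. Of 2064 distal regions with sufficient signal (10 did not pass), 451 (21.9%) had a knockout signal at least 2-fold above wild type, beside 22.4% of all regions tested, and 447 (21.7%) a signal at least 2-fold below, beside 21.0% of all regions. The other 1166 lay within 2-fold, and the median log2 ratio was -0.05, with 0.00 over all regions. In either direction 43.5% of distal regions were past 2-fold, against 43.3% of all regions, 26.1% of promoter regions (13.0% higher and 13.1% lower) and 51.0% of regions with no gene (26.6% and 24.4%). The distal share was thus that of the whole table and above that of promoters. Where counting error was allowed for, 246 distal regions (11.9%) were higher and 181 (8.77%) lower with the whole interval beyond 2-fold, near the 12.9% and 8.72% of all regions. A signal of 0 in 1 genotype was found at 60 tested distal regions, 35 of them at 0 in wild-type and 25 at 0 in knockout cells. Tested or not, 1.93% of distal regions were at 0 in wild type, beside 0.669% of promoter regions and 2.62% of those with no gene. In the knockout these shares were 1.59%, 0.533% and 2.15%.

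**Figure D1:**
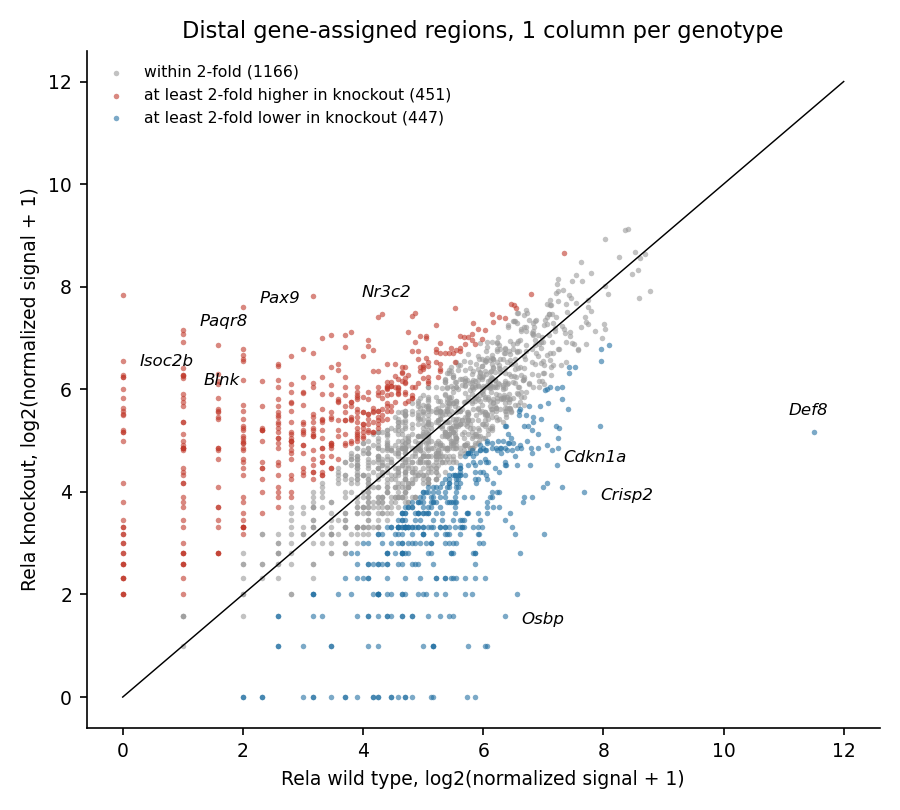
Normalized signal of the 2064 tested distal regions in Rela wild-type (horizontal) and Rela knockout (vertical) cells, both as log2(signal + 1), 1 point per region, with the diagonal marking equal signal. Red marks the 451 regions higher by 2-fold or more in the knockout, and blue the 447 lower; Def8 stands alone at the right with 2897 and 35.

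The share of regions past 2-fold did not step at the 2500 bp limit. Past 2-fold in either direction were 45.2% of distal regions at 2500 to 3000 bp, 43.5% at 3000 to 4000 bp, 44.2% at 4000 to 5000 bp and 36.5% of the 170 beyond. Promoter regions at 1000 to 2500 bp were past 2-fold in 43.7%, like the distal ones, whereas the share was 30.6% at 500 to 1000 bp and 21.4% within 500 bp. Signal moved with this series: the wild-type median was 29 at 2500 to 3000 bp, 31 in promoter regions at 1000 to 2500 bp and 57 within 500 bp. Among regions with a mean signal above 63, 25.4% of 413 distal regions were past 2-fold, against 12.6% of 3322 promoter regions and 29% of 3322 regions with no gene. Among those with a mean of 20.5 or less the shares were 56.6%, 50.1% and 62.9%, so the gap between distal and promoter regions was wider, as a ratio, where the signal was high.

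**Figure D2:**
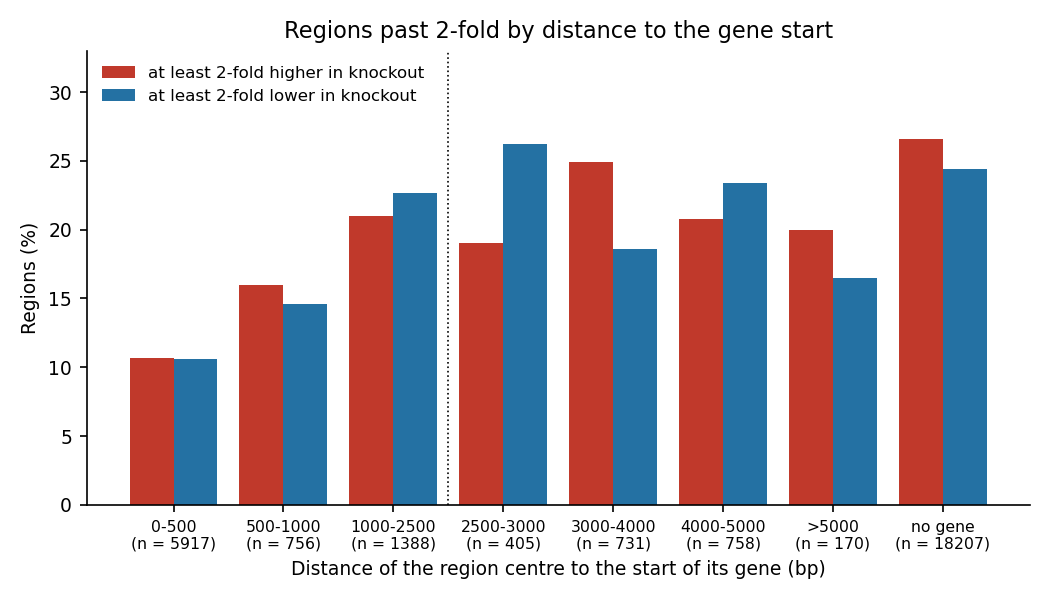
Share of tested regions at least 2-fold higher (red) or lower (blue) in the Rela knockout, by distance of the region centre to its gene start, with regions of no gene at the right; n is the number tested and the dotted line marks 2500 bp. Shares climb from 10.7% and 10.6% within 500 bp to 21.0% and 22.7% at 1000 to 2500 bp, and lie between 16.5% and 26.2% for the distal regions beyond the line.

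The regions nearest the limit are given as examples. Just beyond it, a region of the predicted gene Gm20721 at 2501 bp had 18 in wild-type and 21 in knockout cells, one of the miRNA gene ENSMUSG00000099186 at 2501 bp 186 and 298, and one of Mir214 (ENSMUSG00000065516) at 2505 bp 24 and 2. Just within it, Itgae at 2499 bp had 18 and 5, Nek7 at 2498 bp 20 and 8, and Kif2a at 2497 bp 27 and 30. Position relative to the gene made a small difference. Upstream regions were past 2-fold in 45.1% and downstream regions in 42.0%, with 39.6% inside the gene body and 46.1% past the gene end. Regions on a RefSeq start of the same gene were past 2-fold in 13.2% of 68, those on the start of another gene in 32.7% of 55 and those on none in 44.9% of 1941 tested. With the RefSeq start anywhere within 2500 bp of the centre, the shares were 24.1% (the same gene, 112 tested), 39.1% (only another gene, 115) and 45.0% (none, 1837). Wild-type medians for the first 3 classes were 61.5, 48 and 30, so the share was low where the signal was high.

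The regions with the highest ratios are described first. A mean filter and a high ratio together set their knockout signal from below, and the wild-type signal is low relative to it by choice. Among symbol-bearing regions whose mean reached the median of the table (35), the 12 highest ratios were led by Isoc2b and by Paqr8, which encodes a membrane progesterone receptor (chr1:20885735-20886197, 4640 bp upstream), with signals of 1 and 142 (142-fold, 36.8 to 8290). Pax9 followed with 3 and 193 (64.3-fold, 27.1 to 261). Blnk, a B-cell adaptor gene, had 1 and 84 at 4461 bp downstream (84-fold, 21.6 to 4940). Isoc2b, with 0 in wild type, has no upper limit, and the other upper limits are wide because the wild-type values were 3 or less.

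Next came Rpl39l and Cst8, genes of a ribosomal protein L39 paralog and a cystatin, with 1 and 77 each, and Zfand4. Galc, the lysosomal galactosylceramidase gene, had 3 and 109, and Ttc12, a tetratricopeptide gene of dynein assembly, 3 and 101 (33.7-fold, 14 to 138). Ear14, a ribonuclease gene of the eosinophil-associated family, had the highest knockout signal of the 12, with 8 and 226 (28.2-fold, 15.5 to 54.1). Mtfr1, a mitochondrial fission regulator gene, had 2 and 68, and Lce1d, of the cornified envelope genes, 4 and 71. The genes share no single tissue: among them are genes of lymphocytes, epidermis and testis as well as widely used ones. The 50 regions nearest to Isoc2b, Mtfr1 and Lce1d had median log2 ratios of 1.03, 0.95 and 1.11, and those nearest to Zfand4 -0.78.

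Among distal regions, the lowest ratio belonged to the region with the highest mean signal. A 7941 bp region inside Def8 (chr8:123426192-123434133, 6636 bp downstream of the start) had 2897 in wild-type and 35 in knockout cells (82.8-fold lower, 59.8 to 117). Osbp, the oxysterol-binding protein gene, had 81 and 2 at chr19:11969851-11970383 (40.5-fold lower, 11.6 to 358). Inmt, a methyltransferase gene, had 97 and 6, and Crisp2, a gene of sperm, 203 and 15 (13.5-fold lower, 8.09 to 23.7). Apart from Def8, the wild-type values of these 12 regions lay between 62 and 203, a range that the mean filter and the low ratio set from below.

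Further down, Birc6, an inhibitor-of-apoptosis family ubiquitin ligase gene, had 88 and 9 (9.78-fold lower, 5.27 to 23.1), and Btbd9 63 and 7. Prg4, which encodes the joint lubricant lubricin, had 132 and 17 (7.76-fold lower, 4.75 to 13.3). Atp11a, a phospholipid flippase gene, had 86 and 11, the urea transporter gene Slc14a1 100 and 13, Cmtm7 101 and 14, Tmem74 149 and 22, and the receptor tyrosine kinase gene Epha2 62 and 9. Of the 12 highest 7 were inside the gene body, and of the 12 lowest 4.

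The other regions of highest mean signal were wide and differed little. Trappc3, of a vesicle-tethering complex, had 339 and 556 over 6425 bp (1.64-fold higher, 1.45 to 1.85), and the RNA gene ENSMUSG00000098543 329 and 553. The regions of Ahnak, a giant scaffold protein gene, had 415 and 398 downstream of the start and 390 and 378 upstream of it. Only 40 distal regions were wider than 2000 bp.

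To see whether a distal region and its promoter differed alike, each distal region was set beside the promoter region of the same gene with the highest mean. This was possible for 620 distal regions of 598 genes, with a median of 3822.5 bp between the centres. Of these distal regions, 266 (42.9%) were past 2-fold, and their promoter region was past 2-fold the same way in 59 (22.2%), within 2-fold in 189 (71.1%) and past 2-fold the opposite way in 18 (6.77%). Seen from the promoter, 158 were past 2-fold (25.5%, beside 26.1% of all promoter regions), with the distal region past 2-fold the same way in 59 (37.3%). The log2 ratio was larger in size at the distal region in 387 pairs (62.4%), with an SD of 1.52 across the distal and 1.15 across the promoter regions of the pairs.

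Across the 620 pairs, Spearman's rho of the log2 ratios was 0.29 and Pearson's r 0.28. The pairs share both libraries and their stretch of chromosome, so this is a description. With the nearest promoter region of another gene, a median of 55364 bp away, rho was 0.20 and 49 of the 266 (18.4%) were past 2-fold the same way, beside the 0.29 and 22.2% for the promoter of the same gene. With each ratio centred on the median of its 50 nearest regions, rho with the gene's own promoter was 0.12 and 38 were past 2-fold the same way.

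**Figure D3:**
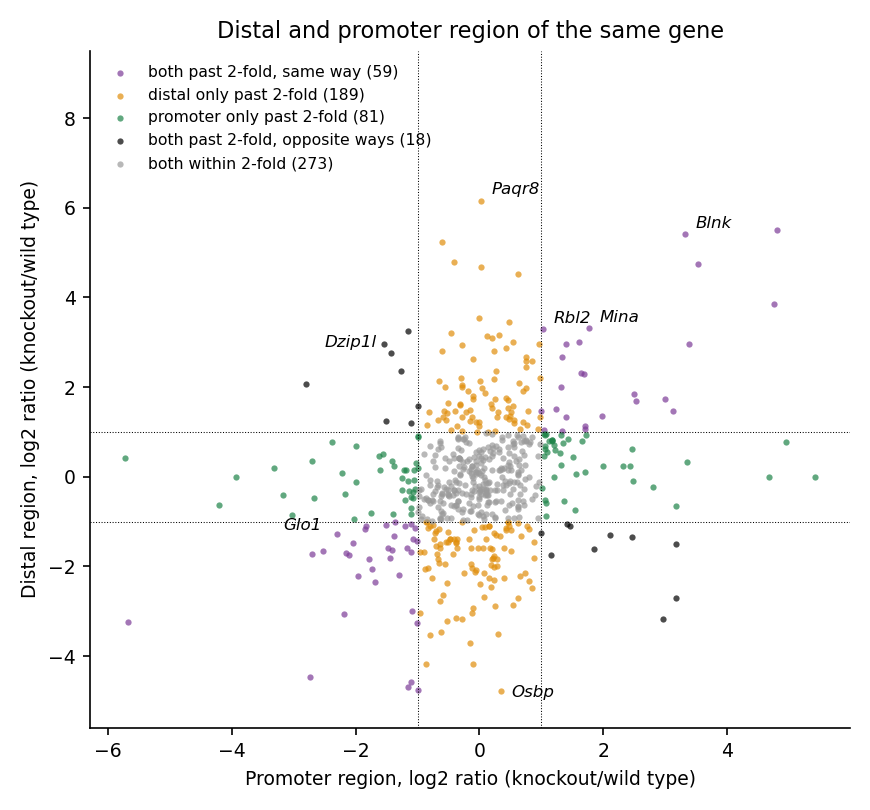
log2 ratio (knockout over wild type) of the promoter region (horizontal) and of the distal region (vertical) of the same gene, 1 point for each of 620 pairs, with dotted lines at 2-fold. Most coloured points lie in the vertical band where the distal region alone is past 2-fold (189 pairs); 59 pairs are past 2-fold the same way at both and 18 opposite ways.

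Several genes kept an open promoter in both genotypes while the distal region was nearly closed in one. These pairs and those of the next paragraph were picked for the gap between the 2 ratios, so this contrast follows from the choice. The promoter region of Paqr8 had 115 in wild-type and 117 in knockout cells (1.02-fold, 0.80 to 1.29) beside the distal 1 and 142. That of Ttc12 had 64 and 65 (1.02-fold, 0.725 to 1.39) beside 3 and 101, and that of Mtfr1 164 and 252 beside 2 and 68. All 3 promoter regions lay within 2-fold, although the interval for Mtfr1 (1.54-fold higher, 1.29 to 1.84) excludes equal signal, and the distal regions did not.

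Prosc, which encodes a pyridoxal phosphate-binding protein, had 137 and 137 at the promoter and 8 and 103 at the distal region (12.9-fold higher, 6.94 to 25.2). The HSP40 gene Dnajb5 had 104 and 97 beside 10 and 67, and Siva1, a gene of apoptosis signalling, 84 and 85 beside 14 and 65. In the other direction Osbp had 314 and 399 at the promoter and 81 and 2 at the distal region, and Lrrc8c, a volume-regulated anion channel subunit gene, 118 and 132 beside 109 and 22 (4.95-fold lower, 3.22 to 8.13). The lower distal signal at Birc6 stood beside a promoter with 228 and 176, that at Atp11a beside 72 and 105, that at Tmem74 beside 55 and 85, and that at Cmtm7 beside 72 and 46. In each of these pairs the promoter region lay within 2-fold.

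A smaller set differed at the promoter more than at the distal region, or in opposite directions. Atf3, a stress-induced factor of the ATF family, had 69 and 10 at a promoter region 1528 bp from the start (6.90-fold lower, 3.54 to 13.7) and 78 and 56 at the distal region 4161 bp upstream (1.39-fold lower, 1.01 to 1.94). Dzip1l, a gene of primary cilia, was 7.12-fold higher at the distal region (16 and 114, 4.61 to 11.9) and 2.73-fold lower at the promoter (112 and 41, 1.95 to 3.94). All 3 distal regions of the chemokine receptor gene Cxcr6 were lower in the knockout, with 16 and 5, 25 and 3, and 46 and 29, while its promoter region had 3 and 35.

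Among pairs past 2-fold the same way whose 2 means both reached the table median of 35, the largest summed log2 ratios were those of Blnk (promoter 17 and 180), of the dioxygenase gene Mina (distal 13 and 138, promoter 20 and 71, the distal region lying on a RefSeq start of 1700022E09Rik) and of Btbd9 (63 and 7, 95 and 44). Anxa8, an annexin gene, had 119 and 28 at the distal and 159 and 47 at the promoter region. Fbln2, which encodes the matrix protein fibulin-2, had 68 and 14 (4.86-fold lower, 2.77 to 8.89) and 137 and 55. For Glo1, the glyoxalase I gene, the values were 84 and 34 and then 176 and 35, for Nwd1 43 and 111 and then 14 and 58, and for the noncoding RNA gene ENSMUSG00000102069 97 and 29 and then 66 and 14. Btbd9 and Glo1 are neighbours on chromosome 17, and the 50 regions nearest to each had a median log2 ratio of -1.19. Centred on these neighbours, the distal ratio of Glo1 was -0.09 and that of Btbd9 -1.81, and the Nwd1 ratio of 1.35 became 0.59.

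**Figure D4:**
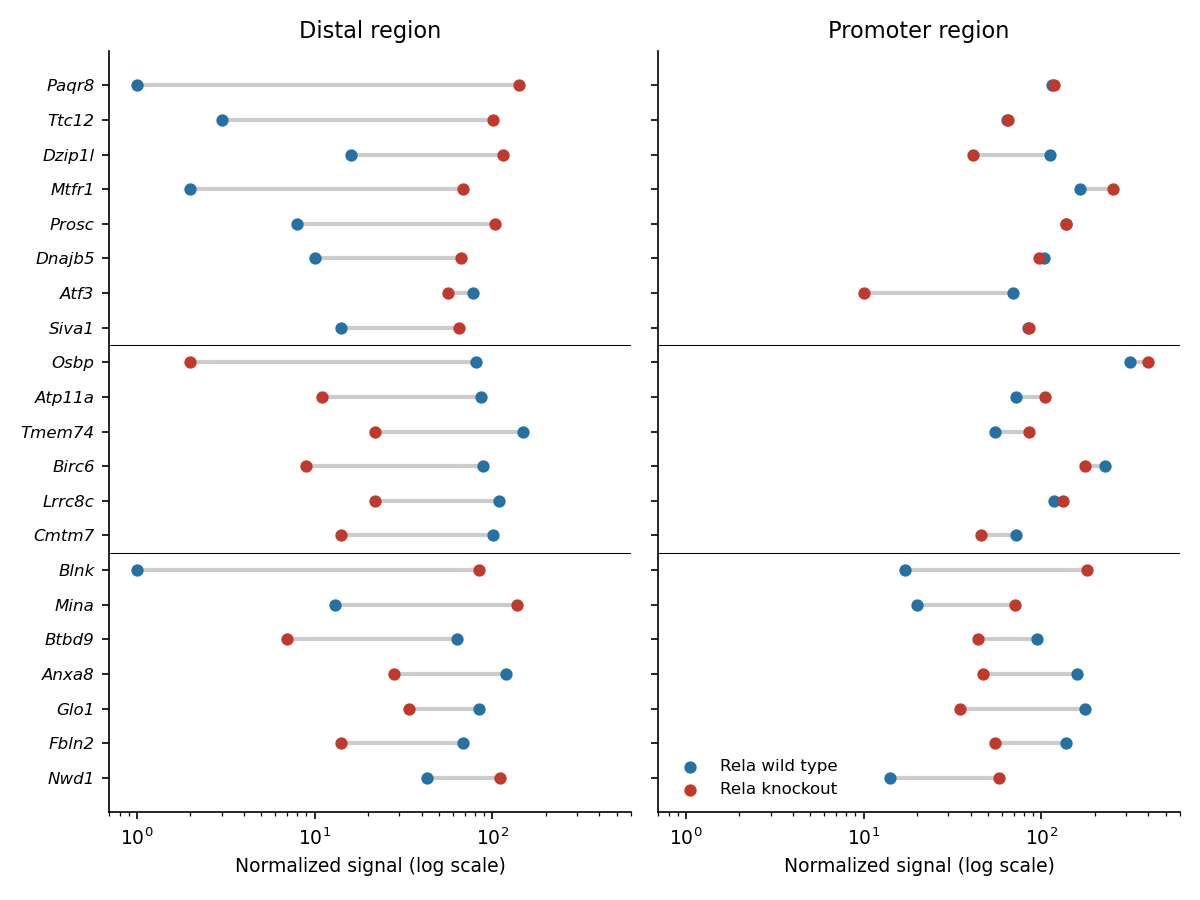
Normalized signal on a log axis in Rela wild-type (blue) and Rela knockout (red) cells at the distal region (left) and the promoter region (right) of the same gene, for the named pairs with a gene symbol; horizontal lines separate pairs with the distal ratio above the promoter ratio, below it, or past 2-fold the same way. In the upper and middle blocks, Dzip1l and Atf3 apart, the promoter values lie within 2-fold while the distal values do not. Pairs of these 2 blocks were picked for the gap between the 2 ratios, so this contrast follows from the choice.

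Genes with more than 1 tested distal region showed how alike 2 such regions of a gene were. Of 72 genes, 9 had 2 regions past 2-fold the same way, 4 had them past 2-fold in opposite directions, 37 had 1 past 2-fold and 22 had none, with rho 0.37 between the 2 ratios. Of all distal regions 21.9% were higher and 21.7% lower. The 2 regions of a gene share a stretch of chromosome, and no count for regions of different genes was made. The 2 regions of Mtfr1 went opposite ways, with log2 ratios of 4.52 and -1.03. Dot1l, the histone H3 lysine 79 methyltransferase gene, had 149 and 64, 26 and 6, and 18 and 14 at its 3 regions, all lower in the knockout but the last within 2-fold. The 50 regions nearest to the first of these had a median log2 ratio of -0.61, and centred on them it came within 2-fold. Both regions of Sema4f, a semaphorin gene, were lower (70 and 28, 23 and 8), as were both of Evx2, a homeobox gene beside the Hoxd cluster (18 and 0, 26 and 9). The 3 regions of the noncoding RNA gene ENSMUSG00000105966 all lay within 2-fold.

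The ratio differed between chromosomes. On chromosome 17, 36 of 80 distal regions were lower (45%) and 5 higher (6.25%) by 2-fold or more, beside 32.3% and 9.87% of all its regions. The median log2 ratio was -0.80, and all regions of that chromosome had a median of -0.56. On chromosome 8, 56 of 151 were higher (37.1%) and 22 lower (14.6%), beside 36.9% and 9.89% of all its regions (median 0.58, all regions 0.61). On chromosome 3, 63 of 171 were higher (36.8%) and 22 lower (12.9%), beside 35.8% and 12.5% (0.48 and 0.53). Chromosome 13 had the lowest median over all its regions, -0.79, with 42.3% lower. Its distal regions had a median of -0.46, with 26.4% lower. On each of these chromosomes the distal regions and all regions thus had medians of the same sign. Copy number of these chromosomes in the lines was not measured, and its part in the result was not tested. With every chromosome centred on its median, 413 distal regions were higher and 441 lower, and rho of the pairs was 0.20.

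**Figure D5:**
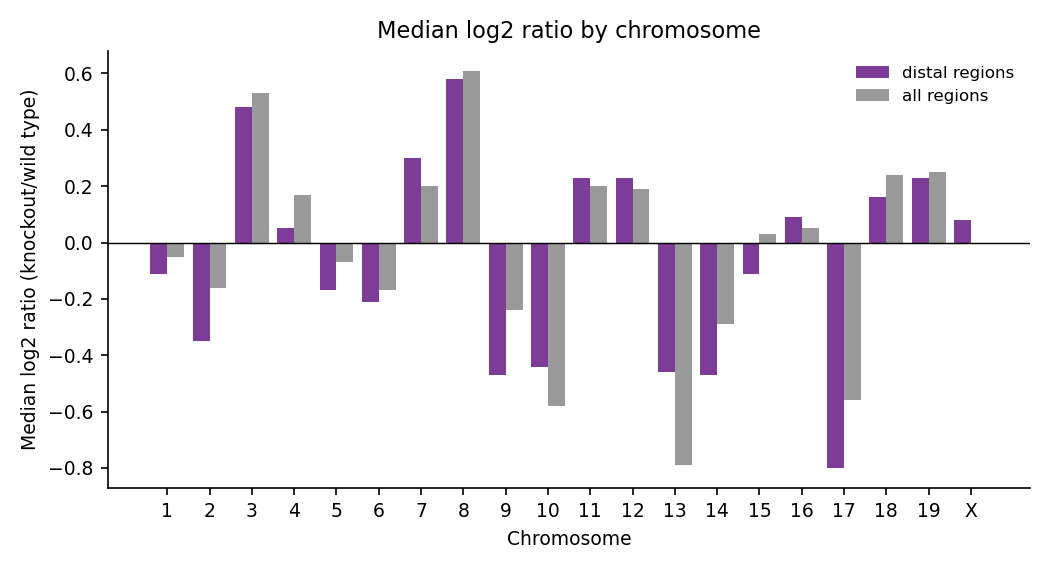
Median log2 ratio (knockout over wild type) of distal regions (purple) and of all regions (grey) on each chromosome, with bars from 0. Chromosomes 3 and 8 lie between 0.48 and 0.61, and chromosomes 10, 13 and 17 at -0.44 or below in both series.

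Pathway genes were read from 25 lists of 660 genes. Of these, 67 genes had a distal region, 71 regions in all, of which 9 were higher and 17 lower by 2-fold or more, beside 21.9% and 21.7% of all distal regions and 22.4% and 21.0% of all regions, with a median log2 ratio of -0.29 beside -0.05 for all distal regions. No list held more than 8 distal regions, so the counts that follow are small, and each is to be read against those shares.

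Among NF-kB targets, 5 of 50 genes had a distal region, 0 higher and 1 lower. The lower one was at Traf2, an adaptor of TNF receptor signalling that is also the only NF-kB pathway component with a distal region, with 24 and 5 (4.80-fold, 1.97 to 16.5) beside a promoter region of 45 and 24. The chemokine genes Ccl20, Ccl5 and Cxcl5 had 121 and 71, 59 and 100, and 54 and 39, and the Toll-like receptor gene Tlr2 81 and 111. The region of Ccl20 was thus open in cells of both genotypes. All 3 distal regions of AP-1 factors, those of Atf3, Batf2 (25 and 21) and Mafk (25 and 28), lay within 2-fold, and Ifit3, the only interferon-response gene with a distal region, had 2 and 9 (4.50-fold, 1.04 to 23.9).

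Extracellular matrix genes had 5 distal regions, 0 higher and 3 lower, beside 21.9% and 21.7% of all distal regions. Besides Fbln2 these were at the collagen genes Col6a1, with 38 and 12 (3.17-fold lower, 1.67 to 6.18), and Col1a2, with 40 and 18 (2.22-fold lower, 1.31 to 3.97). Fbn2, which encodes fibrillin-2, had 70 and 38, and the membrane collagenase gene Mmp14 82 and 47, so all 5 were below wild type. Centred on their neighbours, Col6a1 and Col1a2 came within 2-fold. All 5 regions of TGF-beta and myofibroblast genes lay within 2-fold: those of the inhibitors of bHLH factors Id1 (58 and 34), Id2 (14 and 19, 31 and 46) and Id3 (39 and 25), and that of the ligand gene Bmp4 (15 and 11).

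The 8 regions of integrin adhesion genes included 1 that was lower, at the tyrosine kinase gene Src, with 85 and 30 (2.83-fold, 1.88 to 4.25) beside a promoter of 21 and 16. The integrin subunit genes Itga5 (305 and 383), Itgav (41 and 64), Itgb1 (25 and 30) and Itgb5 (25 and 32), and the adaptors Bcar1 (177 and 274) and Parvb (132 and 153), lay within 2-fold with knockout values above wild type. YAP and TEAD targets had 6 regions. Higher were Ankrd1, a muscle ankyrin-repeat gene, with 4 and 31 (7.75-fold, 3.16 to 22.3), and the phosphatase gene Ptpn14, with 7 and 36 (5.14-fold, 2.58 to 11.9). Lower was 1 of 2 regions of the LIM protein gene Ajuba, with 25 and 4 (6.25-fold, 2.39 to 25.7). The 3 regions of SRF and MRTF targets (Egr3, Flna and Srf) and the 6 of MAP kinase and growth factor genes (Dusp5, Fgf7, Fgfr1, Hbegf, Pdgfc and Pdgfra) lay within 2-fold.

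Patterning factors held the widest spread, with 3 of 7 regions higher and 2 lower. Besides Pax9, the higher ones included that of the orphan nuclear receptor gene Nr2f1, with 12 and 75 (6.25-fold, 3.62 to 10.8). The lower ones were at Sox4, with 44 and 6 (7.33-fold, 3.34 to 21.7), and the paired-box gene Pax8, with 111 and 26 (4.27-fold, 2.88 to 6.79). Nr2f2, the paralog of Nr2f1, had 28 and 28, and Dlx2 81 and 64. The promoter region of Sox4 (18 and 19) lay within 2-fold.

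Of the 2 cell cycle genes with a distal region, the CDK inhibitor gene Cdkn1a, which encodes p21, had 132 and 29 (4.55-fold lower, 3.06 to 6.78), and the retinoblastoma-family gene Rbl2 had 3 and 38 (12.7-fold higher, 5.02 to 53.5) beside a promoter of 83 and 170. Chromatin modifier genes had 8 regions, 1 higher and 3 lower. The higher one was at the DNA demethylation enzyme gene Tet2 (11 and 36, 3.27-fold, 1.80 to 6.34), and the lower ones were 2 of Dot1l and 1 of the histone demethylase gene Kdm1a (31 and 15, 2.07-fold, 1.12 to 3.84). The Wnt pathway scaffold gene Axin1 had 65 and 19 (3.42-fold lower, 2.09 to 5.85) and the ligand gene Wnt5a 19 and 12, and Hoxd4 had 31 and 12 at a region on a RefSeq start of Hoxd3os1. Centred on their neighbours, Axin1, Hoxd4, Kdm1a and 1 of the 2 lower Dot1l regions, that with 149 and 64, came within 2-fold.

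Markers of cell types had distal regions on both sides. Of the 3 fibroblast marker regions, Pdgfra had 58 and 57, Thy1 31 and 25, and Col1a2 was lower. The keratin genes Krt7 (71 and 12, 5.92-fold lower, 3.22 to 11.2) and Krt5 (24 and 10) and the endothelial factor gene Sox18 (33 and 6) were lower. The 2 promoter regions of epithelial markers, of other genes, were both higher in the knockout (median log2 ratio 1.28), and of the 4 of leukocyte markers 2 were higher and 0 lower. The leukocyte marker Ptprc had 56 and 33, the pericyte marker Mcam 23 and 38 and the neural marker Mbp 60 and 95. Fabp4, a fatty acid-binding protein gene of adipocytes, was 2.44-fold higher at the distal region (16 and 39, 1.45 to 4.32). Its promoter region had 16 and 5, while of all 5 promoter regions of adipocyte markers 3 were higher and 1 lower. The distal ratio of Fabp4 came within 2-fold with chromosomes centred, and those of Fabp4 and Krt5 did when centred on their neighbours. Skeletal muscle and chondrocyte or osteoblast markers had no distal region, and the region of the housekeeping gene Gapdh (47 and 88) lay within 2-fold.

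Distal regions were also assigned to 76 miRNA genes, 78 regions in all, of which 15 (19.2%) were higher and 20 (25.6%) lower by 2-fold or more, near the 21.9% and 21.7% of all distal regions. miRNAs pair with target mRNAs through their seed, bases 2 to 8. Of the 78 regions, 32 matched a RefSeq hairpin by position, and those with a mature sequence belonged to 30 miRNA genes. The ones below were chosen after their values were seen and are not a ranking. They are examples of regions lower or higher in the knockout and of 2 families that share a seed. The seed is in capitals.
miR-214-3p: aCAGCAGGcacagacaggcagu
miR-6340: gUCAGCAGcagcuucgcuuuggc
miR-3074-5p: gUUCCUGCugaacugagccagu
miR-6367: uCCCUGAGacccugguucagga
miR-6402: gAGCAGUUuucccaggaacccgc
miR-26a-5p: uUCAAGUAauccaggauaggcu
miR-26b-5p: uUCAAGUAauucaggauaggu
miR-21a-5p: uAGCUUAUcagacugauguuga
miR-21c: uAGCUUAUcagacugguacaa
The distal region of Mir214, a miRNA gene studied in muscle and fibrosis, had 24 in wild-type and 2 in knockout cells (12-fold lower, 3.24 to 108). Mir6340 had 59 and 9 (6.56-fold lower, 3.46 to 15.5) and Mir3074-1 113 and 40 (2.83-fold lower, 2 to 4.07). On the higher side were Mir6367, with 16 and 61 (3.81-fold, 2.37 to 6.53), and Mir6402, with 20 and 64 (3.20-fold, 2.05 to 5.15), whose region lies on a RefSeq start of Elavl2.

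Regions of miRNAs with a common seed did not all go one way. miR-26a-5p is encoded at 2 loci, and the regions of Mir26a-1 (81 and 49) and Mir26a-2 (16 and 10) were below wild type, while that of Mir26b, whose product has the same seed, had 51 and 82. The intervals of Mir26a-1 (1.65-fold lower, 1.18 to 2.33) and Mir26b (1.61-fold higher, 1.16 to 2.20) exclude equal levels and go in opposite directions. That of Mir26a-2 (1.6-fold lower, 0.705 to 3.42) includes equal levels. All regions of chromosomes 9, 10 and 1, which hold Mir26a-1, Mir26a-2 and Mir26b, had median log2 ratios of -0.24, -0.58 and -0.05. miR-21a-5p and miR-21c share a seed, and their regions had 65 and 93 and 104 and 187, both above wild type and within 2-fold. These lie on chromosomes 11 and 8, where all regions had medians of 0.20 and 0.61. The part of such chromosome-wide shifts in these values was not tested.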

How the data were processed

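ATAC-seq regions of Rela wild-type and knockout 3T3 cells were read from 1 table; the other table of the series was used for overlaps only. Per the submitters' processing notes, the tools were STAR 2.4.2a, MACS2, Trimmomatic 0.33, DESeq2, Picard 1.136, bedtools, deepTools and FastQC, on mm10, with no roles given. The values the authors deposited are a score: background-corrected and DESeq-normalized within the table, per the labels' file description, and whole numbers. The authors also deposited the fraction of each region inside its gene, to 1 decimal. The sources used here do not give how the 2 replicates were combined, the Tn5 shift or duplicate handling. Whether starts count from 0 or 1 is not stated.

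Implied counts come from whole values that a scale factor leaves rare or frequent: the factor was 0.683 for wild type and 0.949 for the knockout, explaining 97.5% and 90.9% of the deviance. Intervals take values as scaled counts and leave out any error of the background correction. The step was tested on simulated data. Motifs were searched in RefSeq windows only. Regions were named by rule: every Rela region; the 12 highest and 12 lowest ratios; up to 4 per list past 2-fold; 8 pairs of each kind; the 6 highest means; the 5 genes with most regions; 3 regions on each side of 2500 bp. Members and lists were chosen with earlier results of these data known. Python 3.11.15, numpy 2.4.6, pandas 2.3.3 and scipy 1.17.1 were used. Some listed genes are not reported here.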

Additional observations from a re-analysis of the deposited data

How the results depend on the processing

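Of the 83 regions named by rule, 68 were past 2-fold, and none of these changed direction under another scaling or pseudocount. Other regions given in the text were not run under these settings. Among those are Il11, Nr3c2, Slc29a1, Zfp445, Atp8b2, Eva1c and the miRNA regions given with a mature sequence, Mir214 apart. The median log2 ratio of -0.05 changed sign under 2 settings. Restricting to regions with a mean at or above the table median of 35 left 173 distal regions higher and 133 lower, a median log2 ratio of 0.03, 13 promoters past 2-fold the same way, 46 within 2-fold and 1 opposite, rho 0.41 and 5 regions at 0 in 1 genotype. Beyond 5000 bp these counts were 34, 28, 2, 12 and 0, with 3 regions at 0. Centring on chromosomes gave rho 0.20, and centring on the 50 nearest regions gave a median of 0.01, 38 promoters the same way and rho 0.12. Fewer regions enter the first 2 settings by construction; the cause of the other changes was not tested. A pseudocount of 5, no filter, quantile or loess scaling, 1 region per gene, leaving out regions wider than 2000 bp and leaving out regions near a RefSeq start, the last chosen after seeing the data, kept these counts within 1.5 times.

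Of the 68 regions named by rule and past 2-fold, 4 came within 2-fold with a pseudocount of 5 (Col1a2, Kdm1a, Krt5 and Nek7). With loess scaling 1 did, with chromosomes centred 5 (Col1a2, Dot1l, Fabp4, Glo1 and Nwd1) and when centred on neighbours 11. A region outside these 68 is not shown to hold by its absence here. No paired analysis was possible because each genotype has 1 column and no replicate columns. With 49.8 and 36.9 implied counts at a median region, the interval excluded equal signal at 604 higher and 625 lower of 2064 distal regions. Over all 28332 regions tested it did so at 8672 higher and 8373 lower, a similar share, so these counts are not particular to distal regions.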

Other observations

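Distal regions of genes that do not encode proteins made up a large part of the set. Of 206 tested regions of processed pseudogenes, 60 (29.1%) were higher and 47 (22.8%) lower in the knockout by 2-fold or more, beside 21.9% and 21.7% of all distal regions, and of 131 regions of TEC genes (transcripts still to be experimentally checked) 43 were higher and 22 lower (32.8% and 16.8%). Among 58 regions of small nuclear RNA genes 18 were higher and 7 lower (31.0% and 12.1%), with a median log2 ratio of 0.15, and among 26 of miscellaneous RNA genes 10 were higher and 4 lower (38.5% and 15.4%). Regions of lincRNA genes (30 higher and 37 lower of 151, 19.9% and 24.5%) and of antisense genes (21 and 26 of 105, 20.0% and 24.8%) had more lower than higher calls, as did those of protein-coding genes (224 and 252 of 1168, 19.2% and 21.6%, near the shares of all distal regions). These classes were read after their values were seen, and their differences were not tested.

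The kidney fibroblast table of the same series, from Kindlin-2 floxed and knockout cells, has its own list of regions. Of the distal regions, 215 (10.4%) overlapped a region of that table by at least 1 bp, near the 10.8% of regions with no gene and below the 29.7% of promoter regions. The shared distal regions were past 2-fold between Rela wild-type and knockout cells in 26.5%, and the 1849 tested regions that were not shared in 45.5%. Their wild-type medians were 59 and 29, so shared regions also had the higher signal, whose part in this difference was not tested.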
